A study of Mus musculus with 28 samples.

Results

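The regions described here are stretches of mouse DNA that carried 5-methylcytosine (5mC) signal in all 5 libraries of that mark and 5-hydroxymethylcytosine (5hmC) signal in none of the 6 libraries of the other. They were found by merging the 5mC peaks of chromosomes 1 to 19 wherever peaks overlapped by at least 1 bp. A merged region was a member if it was under 1200 bp wide, had a peak in each of the 5 lists of 5mC and was touched by no peak in any list of 5hmC. There were 41905 members among 215714 merged 5mC regions, or 19.4%. Members were thus chosen by the presence of 5mC peaks and the absence of 5hmC peaks on the region, and neither is a finding. Counts of that kind are given as descriptions without a test.

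The study profiled bone marrow cells labelled LK from mice of the C57BL/6 strain aged 6 to 10 weeks, in a series on malignancy after loss of Tet1 and Tet2. The 3 genotypes were DKO, which lacks both Tet1 and Tet2, Tet2KO, which is Tet2-/- and is given Tet1 loss by no label, and wild type (WT). Capture of 5hmC by selective chemical labelling (hMe-Seal) gave 2 libraries of each genotype. Immunoprecipitation of methylated DNA (MeDIP-seq) gave 2 libraries of DKO, 1 of Tet2KO and 2 of WT. The peak lists hold no expression values, so neither the labelled cell type nor the knockouts were checked against the expression of marker or targeted genes.

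Most cytosines that are methylated in mammalian DNA lie in CpG pairs, and their methylation is set and copied by the DNMT enzymes. TET enzymes oxidise 5mC to 5hmC, which can be an intermediate on the way to an unmethylated cytosine or can persist as a mark of its own. In blood-forming tissue, Tet2 is a known suppressor of malignancy, and 5hmC is known to be found in gene bodies and enhancers. A stretch with 5mC signal and no 5hmC signal is therefore one where methylation was enriched while its oxidised form was not called. Both assays measure enrichment over a stretch of DNA, and a missing 5hmC peak says only that the signal stayed under the caller's threshold.

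The 5mC lists held 147934 and 120243 peaks in DKO, 138122 in Tet2KO, and 126995 and 140979 in WT. The 5hmC lists held 130077 and 143960 peaks in DKO, 137013 and 140491 in Tet2KO, and 128471 and 135265 in WT. Read depth is unknown. The 5hmC peaks covered 4.55% and 4.37% of the autosomal span in DKO, 4.19% and 4.07% in Tet2KO, and 4.62% and 4.51% in WT, and 7.77% when all 6 lists were merged.

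Of the 68886 regions under 1200 bp that were constant, meaning with a 5mC peak in all 5 lists, the members made up 60.8%. The other 26981, here called the 5hmC-bearing constant regions, had a 5hmC peak of at least 1 list on them. Members had a median merged width of 445 bp, with quartiles of 385 and 527 bp and a range of 136 to 1198 bp. The 5hmC-bearing constant regions had a median of 491 bp, with quartiles of 421 and 620 bp. The part of a region that the peaks of all 5 lists shared, its core, had a median of 229 bp in members and 259 bp in 5hmC-bearing constant regions. That core was 53.2% of the merged width of a median member, and 201 members had none, because their peaks were chained together by overlaps. Together the members spanned 19.99 Mb.

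Narrow constant regions were members more often than wide ones. Among constant regions under 300 bp, 84.2% had no 5hmC peak, against 39.0% of those of 800 to under 1200 bp, and the share fell in each step between. A wider region has more positions that a 5hmC peak can touch, so part of this gradient follows from the choice of members. The share also changed with the number of 5mC lists. Of regions under 1200 bp in 1, 2, 3, 4 and 5 lists, 73.0%, 70.6%, 68.9%, 67.0% and 60.8% had no 5hmC peak. Regions in more lists were wider, with a median of 242 bp in 1 list and 461 bp in 5. Within the 400 to 600 bp class the shares were 61.9%, 62.8%, 61.8%, 62.4% and 60.7%, with no steady order.

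The 5mC signal of members was compared library by library. A member was covered by 5mC peaks over a median of 313 and 354 bp in DKO libraries 1 and 2, 330 bp in the Tet2KO library, and 351 and 316 bp in WT libraries 1 and 2. The DKO libraries lay on both sides of the WT libraries. The mean was 333.5 ± 29.0 bp in DKO and 333.5 ± 24.7 bp in WT (SD, n = 2 each), a difference of 0 bp (exact two-sided permutation p = 1, where 2 libraries against 2 cannot give less than 0.333). The Tet2KO library lay between the WT libraries. Members with more than 1 peak of a library on them made up 3.80% and 1.99% in DKO, 3.05% in Tet2KO, and 2.25% and 3.46% in WT.

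Members were shorter than 5hmC-bearing constant regions in every 5mC library. Median covered length of the 5hmC-bearing regions was 358 and 402 bp in DKO, 374 bp in Tet2KO, and 391 and 358 bp in WT. The difference, members minus 5hmC-bearing regions, was -43.8 ± 3.03 bp (SD over 5 libraries), lower in 5 of 5. It was not tested, because the absence of 5hmC peaks favours short regions. Among regions of 400 to under 600 bp the difference was -13.6 bp, smaller in size than over all widths.

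The authors' peak score was used only as a rank within its own list, as a percentile where 100 is the top. Members had a median percentile of 72.2 and 66.2 in DKO, 70.3 in Tet2KO, and 69.2 and 71.6 in WT. For 5hmC-bearing constant regions it was 77.6 and 72.7 in DKO, 76.4 in Tet2KO, and 72.1 and 75.5 in WT. Both kinds of region sat in the upper part of every list, and members were lower in each. The difference, members minus 5hmC-bearing regions, was -4.98 ± 1.52 percentile points (SD over 5 libraries), lower in 5 of 5. Among regions of 400 to under 600 bp it was -1.45 points, smaller in size than over all widths, and members were not lower in all 5 libraries. This gap is a description without a test, because the absence of 5hmC peaks favours short regions. All 5 libraries also ranked the same regions.

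**Figure D1:**
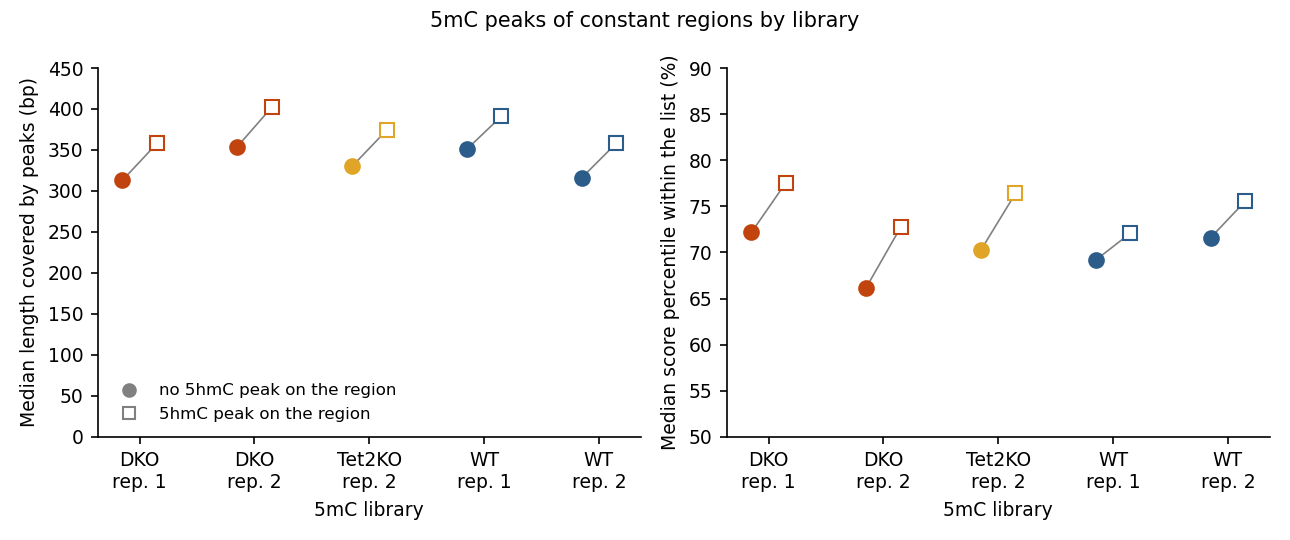
Median length covered by 5mC peaks (left, bp) and median within-list score percentile (right; the axis starts at 50) of constant 5mC regions in each 5mC library, with members as filled circles and 5hmC-bearing constant regions as open squares. Members sit below the 5hmC-bearing regions in all 5 libraries, at 313 to 354 bp against 358 to 402 bp, while DKO and WT libraries overlap.

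Member by member, the libraries ranked the regions alike to a moderate degree. Over the 41905 members, Spearman's rho of covered length was 0.576 between the DKO libraries and 0.586 between the WT libraries, and 0.565 to 0.631 over the 8 pairs of libraries of different genotypes. For the score it was 0.738 between the DKO libraries, 0.750 between the WT libraries and 0.729 to 0.783 between genotypes. The values within a genotype lay inside the range between genotypes. They describe points that share regions, and merging also ties the lengths together.

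Some members ranked high in every 5mC list. The same counts were not made for 5hmC-bearing constant regions, whose median percentile was higher in every list. The counts are thus a description and not a trait of members. In 3596 members the score was at or above the 90th percentile of every 5mC list, and in 21060 it was at or above the 50th. A further 4029 members fell under the 10th percentile in at least 1 list, and none did so in all 5. The 4 members with the highest lowest percentile, 99.9 in each case, were chr2:7716300-7717195, chr3:102739195-102740377, chr12:72418886-72419909 and chr18:37681215-37681906 (mm9), followed by chr5:148019248-148020035. Those 4 were tied, each with its lowest percentile in WT library 2 at the same score of 3100, so their order carries no rank. The member on chromosome 2 is 896 bp wide, and the peaks covered 848 and 804 bp of it in DKO, 785 bp in Tet2KO, and 849 and 824 bp in WT. Its nearest 5hmC peak of any library lay 524211 bp away. The member on chromosome 3 is 1183 bp wide and lay 29962 bp from 5hmC. The member on chromosome 12 is 1024 bp wide and had a 5hmC peak 8553 bp away. The members on chromosomes 18 and 5 lay 120814 and 25484 bp from 5hmC. All 5 were farther from 5hmC than the median member, at 3672 bp.

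At the ends of the width range, the widest members were chr1:120733634-120734831 with 1198 bp, chr16:9037625-9038821 with 1197 bp and chr1:23960602-23961796 with 1195 bp. The widest ranked at the 99.8th percentile or higher in all 5 lists, and its peaks covered 1108 and 1131 bp in DKO, 1127 bp in Tet2KO, and 1059 and 1104 bp in WT. The narrowest were chr2:40442652-40442787 with 136 bp, chr3:151679442-151679579 with 138 bp and chr6:8642401-8642540 with 140 bp. Narrow members could still rank high. The one on chromosome 3 lay at percentiles of 88.9 and 90.8 in DKO, 89.0 in Tet2KO, and 89.6 and 90.8 in WT.

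Whether any region differed between genotypes in the length its 5mC peaks covered was tested with limma over all 70032 constant regions. In DKO against WT, 0 of 41905 members passed an adjusted p of 0.05 (0 percent of all regions tested), and the smallest adjusted p was 0.454. At an unadjusted p under 0.05, 1761 members (4.20%) passed, beside 4.41 percent of all regions tested. Of these members, 830 were longer in DKO, beside 2.25 percent of all regions, and 931 shorter, beside 2.16 percent. The median log2 difference was -0.0039 in members and 0.0023 in all regions. For the single Tet2KO library against WT, where its spread is assumed to be that of the other genotypes, 0 members passed, beside 0.00286 percent of all regions, and 1579 members (3.77%) passed unadjusted, beside 4.04 percent. Longer in Tet2KO were 626 of them, beside 1.77 percent of all regions, and shorter were 953, beside 2.27 percent. Member counts by direction are out of 41905 members, and the percentages beside them are out of 70032 regions.

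The members with the lowest p in DKO against WT still show the range of single regions. At chr14:118357817-118358439, 5mC peaks covered 168 and 233 bp in the DKO libraries, 552 bp in the Tet2KO library, and 580 and 579 bp in the WT libraries. The log2 difference of DKO from WT was -1.56 ± 0.25 (SE; limma adjusted p = 0.454). At chr13:38131719-38132280 they covered 504 and 497 bp in DKO, 433 bp in Tet2KO, and 185 and 131 bp in WT, with a log2 difference of 1.68 ± 0.28 (SE; limma adjusted p = 0.454). In both, the DKO and WT libraries did not overlap, and neither passed the threshold.

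For the Tet2KO library against WT, the lowest p among members belonged to chr17:12420080-12420964. Its peaks covered 183 bp in Tet2KO, against 859 and 561 bp in WT, while DKO had 707 and 711 bp (limma adjusted p = 0.412 for Tet2KO against WT). The next was chr8:125765090-125766047, with 185 bp in Tet2KO against 869 and 690 bp in WT, and 458 and 795 bp in DKO. These pairs were chosen for a low p, have 1 library of Tet2KO and did not pass the threshold.

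Members were not all remote from 5hmC. The nearest 5hmC peak of any of the 6 libraries lay a median of 3672 bp from the edge of a member, with quartiles of 1061 and 16731 bp. It lay within 1 kb in 23.9% of members, within 10 kb in 68.3% and within 100 kb in 90.1%. At the other end, 409 members, on all 19 autosomes, were 1 Mb or more from the nearest 5hmC peak. The farthest were chr15:18942952-18943534, with its nearest 5hmC peak 6076478 bp away, and 4 neighbours on the same chromosome.

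Those 5 most distant members all lie on chromosome 15, in its longest stretch without 5hmC, and span a range of 5mC strength. The farthest one, 583 bp wide, ranked at percentiles of 84.5 and 93.3 in DKO, 90.2 in Tet2KO, and 90.1 and 85.4 in WT. The one at chr15:18851027-18851308, 282 bp wide, ranked at 21.0 and 25.7 in DKO, 45.9 in Tet2KO, and 61.7 and 58.1 in WT. In that member both DKO libraries were below both WT libraries; it was named for its distance and no test was made of it alone.

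Members became shorter with distance from 5hmC. Median merged width was 455 bp under 1 kb, 449 bp from 1 to 10 kb, 439 bp from 10 to 100 kb, 420 bp from 100 kb to 1 Mb and 382 bp at 1 Mb or more. These classes held 10023, 18617, 9110, 3746 and 409 members. Between the nearest and the farthest class, the covered length went down in every 5mC library. At 1 Mb or more the medians were 263 and 297 bp in DKO, 268 bp in Tet2KO, and 290 and 259 bp in WT, against 321 and 365 bp in DKO, 341 bp in Tet2KO, and 361 and 325 bp in WT under 1 kb. The score percentile was lower from 100 kb to 1 Mb than under 1 kb in every library, but not at 1 Mb or more. Under 1 kb it was 73.0 and 67.1 in DKO, 71.3 in Tet2KO, and 69.4 and 72.1 in WT. From 100 kb to 1 Mb it was 70.4 and 64.6 in DKO, 68.8 in Tet2KO, and 68.5 and 70.8 in WT. In the farthest class, with 409 members, it was 72.5 and 68.2 in DKO, 72.0 in Tet2KO, and 71.2 and 72.4 in WT.

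**Figure D2:**
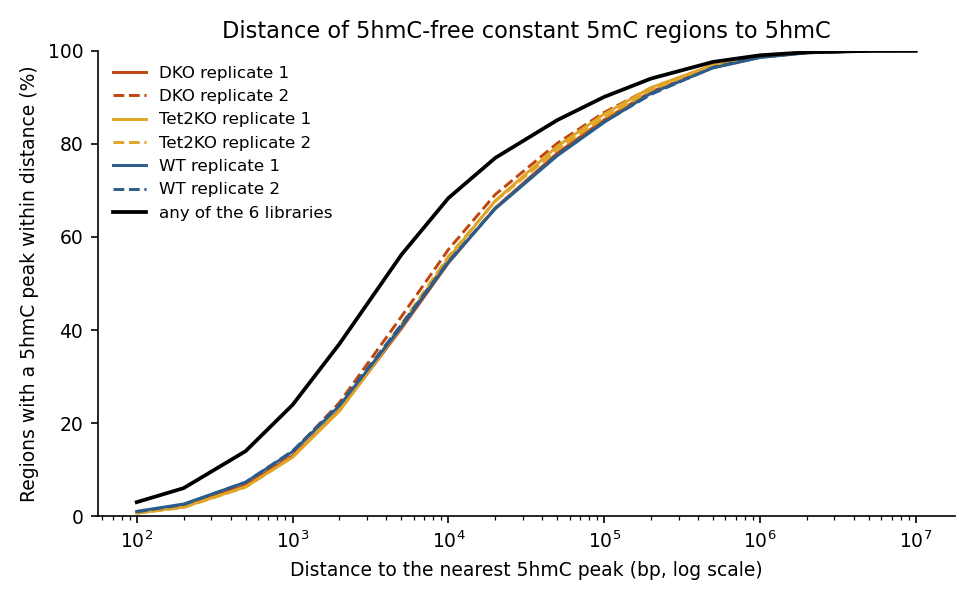
Cumulative share of members (vertical axis, %) with a 5hmC peak within a given distance of the region edge (horizontal axis, bp, log scale), for each 5hmC library and for all 6 together. With the 6 lists combined, 23.9% of members lie within 1 kb and 68.3% within 10 kb of 5hmC, against 12.7% to 14.0% and 54.4% to 57.3% in single libraries.

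Measured in each library on its own, the median distance from a member to its nearest 5hmC peak was 7952 and 6965 bp in DKO, 7715 and 7493 bp in Tet2KO, and 7856 and 7827 bp in WT. The DKO libraries lay on both sides of the WT libraries, and both Tet2KO libraries lay below them. Both knockouts together differed from WT by -310 bp (exact two-sided permutation p = 0.467, Benjamini-Hochberg adjusted p = 0.544 over 7 measures). A 5hmC peak lay within 2 kb in 22.8% and 24.4% of members in DKO, 22.6% and 23.1% in Tet2KO, and 23.8% and 24.0% in WT. Each library's list leaves out peaks of the other 5, so these distances are longer than the distance to any library's peak.

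Around members, 5hmC coverage came up from near 0 at the edge, steeply over the first kilobases and more slowly out to 100 kb. In the first 200 bp, 0.448% ± 0.0427 of positions were covered by 5hmC peaks in DKO, 0.395% ± 0.0137 in Tet2KO and 0.562% ± 0.0315 in WT (SD, n = 2 each). From 1 to 2 kb it was 5.75% ± 0.0934 in DKO, 5.15% ± 0.0149 in Tet2KO and 6.20% ± 0.160 in WT. From 50 to 100 kb it was 7.72% ± 0.280 in DKO, 7.06% ± 0.129 in Tet2KO and 7.97% ± 0.160 in WT. The dip beside the region follows from the choice of members, since a 5hmC peak has a width of its own and may not touch the region.

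Even 50 to 100 kb away, members had less 5hmC around them than 5hmC-bearing constant regions. Coverage there ranged over the 6 libraries from 6.97% to 8.09% around members and from 13.8% to 16.3% around 5hmC-bearing regions. In the 10 kb on each side, the difference, members minus 5hmC-bearing regions, was -15.4 ± 1.29 percentage points (SD over 6 libraries), lower in 6 of 6. The 5hmC lists chose the members, so these gaps are a description and were not tested. Around members the far coverage was above the 4.07% to 4.62% that 5hmC covered of the whole autosomal span.

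**Figure D3:**
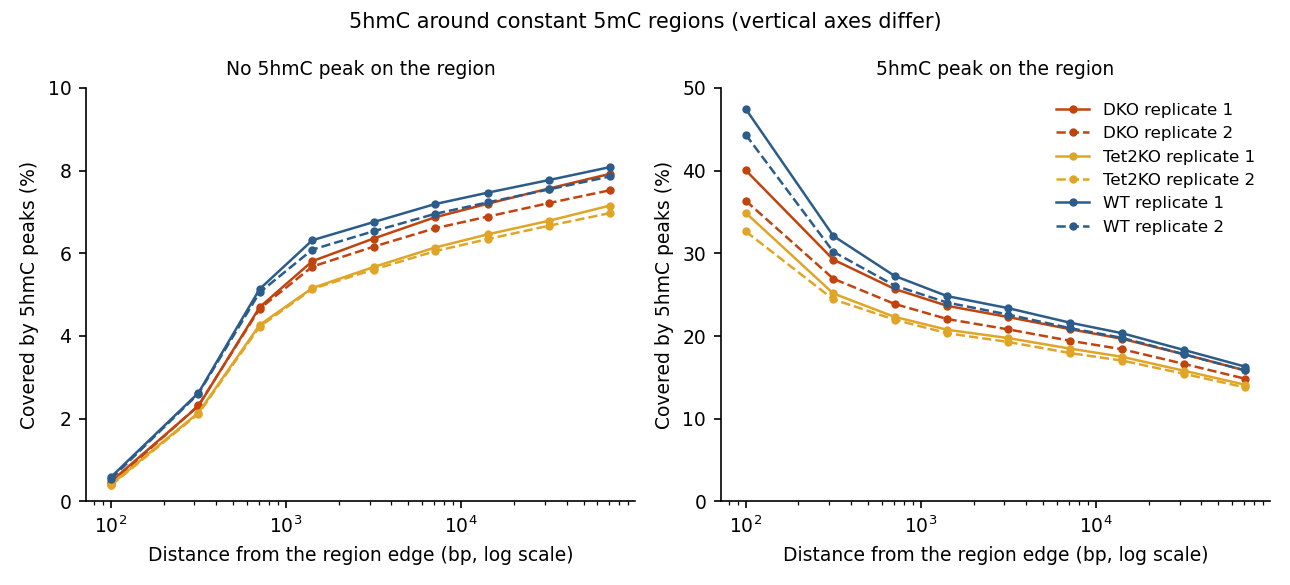
Share of positions covered by 5hmC peaks (%, vertical axes differ) at increasing distance from the region edge (bp, log scale) around members (left) and 5hmC-bearing constant regions (right), 1 line for each 5hmC library. Around members coverage climbs to 6.97% to 8.09% at 50 to 100 kb, around the 5hmC-bearing regions it declines to 13.8% to 16.3%, and the Tet2KO libraries are lowest in both panels.

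Genotypes were compared in the 10 kb on each side of members. The choice of members used all 6 lists of 5hmC and lowered coverage next to the region, as the first 200 bp show, in every genotype. The share covered by 5hmC peaks was 6.24% and 6.03% in DKO, 5.57% and 5.50% in Tet2KO, and 6.60% and 6.39% in WT. The 3 genotypes did not overlap, with Tet2KO lowest, DKO between and WT highest. The mean was 6.13% ± 0.147 in DKO, 5.54% ± 0.0477 in Tet2KO and 6.49% ± 0.151 in WT (SD, n = 2 each). Both knockouts together differed from WT by -0.658 percentage points, a relative difference of -10.1% (exact two-sided permutation p = 0.133, where 4 libraries against 2 cannot give less than 0.0667, adjusted p = 0.467 over 7 measures). DKO differed from WT by -0.361 points, Tet2KO from WT by -0.956 points and DKO from Tet2KO by 0.596 points, each with the smallest exact permutation p that 2 against 2 allow, 0.333.

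The total length covered by 5hmC also differed between libraries. Divided by the autosomal length that 5hmC peaks covered in the same library, the share was 5.69% and 5.72% per 100 Mb in DKO, 5.51% and 5.61% in Tet2KO, and 5.93% and 5.87% in WT. The knockout libraries were still all below the WT libraries, with a difference of -0.268 points or a relative -4.55% (exact two-sided permutation p = 0.0667, the smallest possible, adjusted p = 0.467). That is smaller in size than the undivided -10.1%. Around 5hmC-bearing constant regions the relative difference of both knockouts from WT was -11.1% before and -5.57% after that division. Whether members and 5hmC-bearing regions differ in this was not tested.

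The number of 5hmC peaks near members did not separate the genotypes. The flanks held a mean of 1.61 and 1.76 peaks in DKO, 1.62 and 1.68 in Tet2KO, and 1.64 and 1.71 in WT, which overlap (difference of both knockouts from WT -0.00431, exact permutation p = 1). The median width of these peaks was 701 and 622 bp in DKO, 632 and 598 bp in Tet2KO, and 727 and 680 bp in WT. Both Tet2KO libraries had narrower peaks than both WT libraries, while DKO overlapped WT and Tet2KO. Both knockouts differed from WT by -65.2 bp (exact permutation p = 0.267, adjusted p = 0.544).

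**Figure D4:**
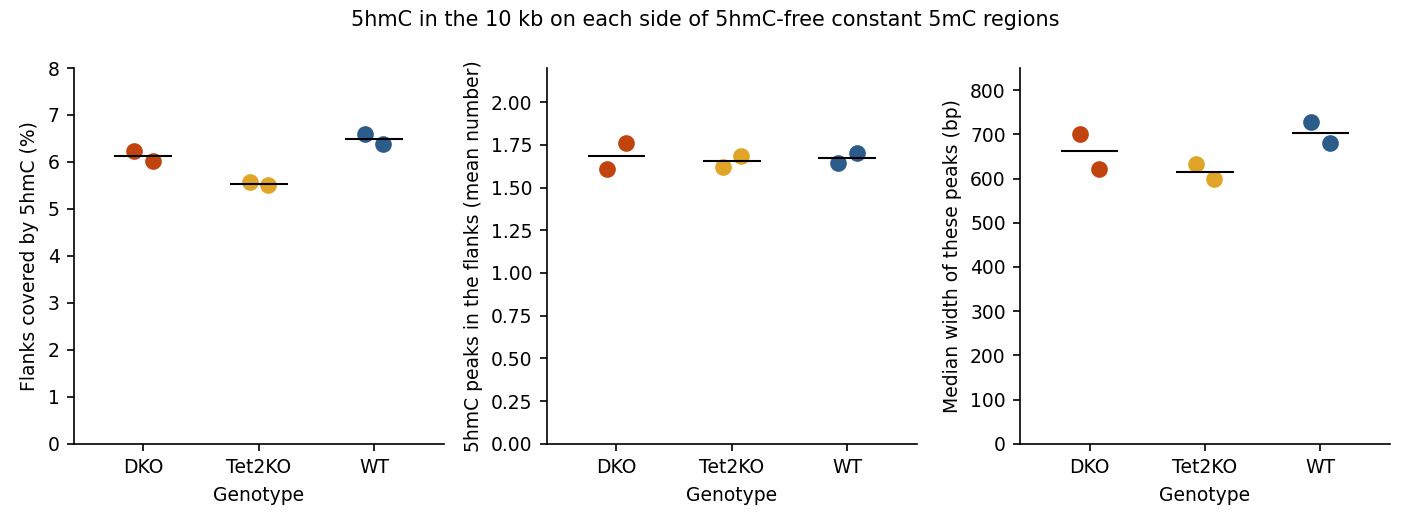
5hmC in the 10 kb on each side of members in DKO, Tet2KO and WT: share covered (left, %), mean number of peaks (middle) and median peak width (right, bp), with a point for each library and a line at the mean. Coverage orders the genotypes without overlap, from 5.50% in a Tet2KO library to 6.60% in a WT library, while the number of peaks overlaps.

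Single flanks were tested with limma on the arcsine of the square root of the covered fraction, over 53807 constant regions with flank 5hmC in at least 2 libraries. Of the 41905 members, 26074 entered and 15831 were left out by that filter. In DKO against WT, 0 members passed an adjusted p of 0.05 (0 percent of all regions tested; smallest adjusted p 0.426), and 2481 (9.52%) passed unadjusted, beside 9.49 percent. Of these, 1070 were higher in DKO, beside 3.13 percent of all regions, and 1411 lower, beside 6.36 percent. In Tet2KO against WT, 0 passed (0 percent; smallest adjusted p 0.246), and 3125 (12.0%) passed unadjusted, beside 14.4 percent. Of these, 794 were higher in Tet2KO, beside 2.01 percent of all regions, and 2331 lower, beside 12.4 percent. In DKO against Tet2KO, 0 passed (0 percent; smallest adjusted p 0.570), and 1886 (7.23%) passed unadjusted, beside 7.66 percent. Of these, 1383 were higher in DKO, beside 6.21 percent of all regions, and 503 lower, beside 1.45 percent. Member counts by direction are out of 26074 members, and the percentages beside them are out of 53807 regions. The unadjusted counts include members that passed the filter through a single genotype, so they are not read as a result about members.

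The median arcsine difference of the members that entered was -0.00558 in DKO against WT, beside -0.0118 in all regions tested. It was -0.0205 in Tet2KO against WT, beside -0.0341, and 0.0135 in DKO against Tet2KO, beside 0.0209. These comparisons share libraries, and neighbouring flanks overlap. The absence of calls depended on the filter. With all 70032 constant regions in the fit, 417 members (0.995% of members) passed in DKO against WT, beside 0.694 percent of all regions tested. In Tet2KO against WT 387 (0.924%) passed, beside 0.67 percent, and in DKO against Tet2KO 279 (0.666%), beside 0.458 percent. This fit also took in members with flank 5hmC in 1 library or none, so its calls are not read as a result about members. In that fit the prior degrees of freedom of limma were 0.862, against 3.51 with the filter.

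Examples with the lowest p among members came from flanks with 0 in both libraries of at least 1 genotype. Beside chr12:84928866-84929406, 5hmC peaks covered 9.36% and 13.0% of the flanks in DKO, 4.64% and 7.63% in Tet2KO, and none in the WT libraries (limma adjusted p = 0.426 for DKO against WT). Beside chr15:11978661-11979096 they covered 11.9% and 8.86% in DKO and none in Tet2KO or WT. That member passed the filter through the DKO libraries alone, so its test is not given. Both members had more flanking 5hmC in DKO than in WT, the opposite of the median difference.

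Tet2KO gave the reverse picture at other members. Beside chr5:134839620-134840138 it had no covered position, against 12.6% and 9.90% in WT, with 6.83% and 7.14% in DKO (limma adjusted p = 0.246 for Tet2KO against WT). Beside chr11:112954872-112955282 it again had none, against 16.6% and 11.5% in WT, with 9.97% and 13.7% in DKO (adjusted p = 0.246 by limma). Farther along the same chromosome, chr11:113022500-113022962 had 32.4% and 23.2% in DKO against none in Tet2KO, with 18.6% and 13.1% in WT (limma adjusted p = 0.570 for DKO against Tet2KO). Next by p in that comparison was chr11:113020134-113020507, with 26.5% and 17.6% in DKO, none in Tet2KO, and 13.0% and 9.17% in WT. The flanks of these neighbours overlap, so they show the same stretch. None passed the threshold.

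Members were spread over all autosomes, from 12.8 per Mb on chromosome 3 to 23.1 per Mb on chromosome 5, with 17.4 per Mb overall. Chromosome 17 had the lowest share of members among its constant regions, 52.4%, and chromosome 18 the highest, 68.6%. That share went down as the chromosome's 5hmC coverage went up (Spearman's rho -0.833 over 19 chromosomes, a description, since the absence of 5hmC was part of the choice). Chromosome 11 had the highest 5hmC coverage, 12.4% of its span, and a share of 53.4%, yet at 22.4 members per Mb it was the second densest. Members and 5hmC-bearing constant regions were dense in the same parts: over 2404 bins of 1 Mb, rho between their counts was 0.830, a description of bins that share the same libraries.

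**Figure D5:**
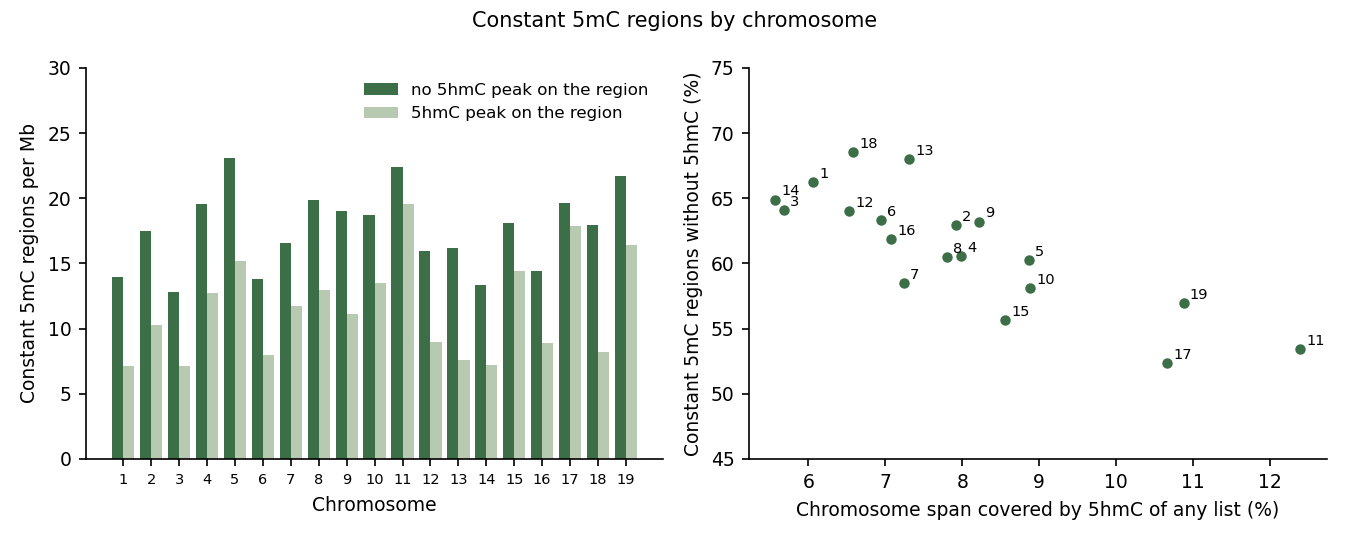
Left, members (dark) and 5hmC-bearing constant regions (light) per Mb of each chromosome; right, share of constant regions that are members (%, axis from 45) against the share of the chromosome covered by 5hmC of any list (%). Chromosomes with more 5hmC, such as 11 and 17, have shares of 53.4% and 52.4%. Chromosome 18, at 6.58% 5hmC, has the highest share, 68.6%, and chromosome 14, with the least 5hmC at 5.57%, has 64.9%.

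Some members also lay in groups, and no spacing of the 5hmC-bearing constant regions is given beside theirs. Joined across gaps of at most 10 kb, members formed 27796 runs, of which 19871 held 1 member. The nearest other member was a median of 9039 bp away, within 1 kb for 12.2% of members and within 10 kb for 52.6%. Of the 14509 bins of 100 kb that held a member, the median held 2 and 314 held 10 or more. The densest bin, chr1:75400001-75500000, held 22 members beside 4 5hmC-bearing constant regions, and 5hmC covered 8.57% and 6.40% of it in DKO, 5.86% and 7.47% in Tet2KO, and 6.98% and 5.87% in WT. The longest run with gaps of at most 10 kb had 21 members, from 114633708 to 114721632 on chromosome 5, with 18 merged 5hmC regions and 8 5hmC-bearing constant regions between them.

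The densest bins differed in their 5hmC. The bin chr8:46100001-46200000 held 20 members and no 5hmC-bearing constant region, and its 5hmC was 0% in both DKO libraries, 0.534% and 0% in Tet2KO, and 0% in both WT libraries. The bin chr4:151700001-151800000 also held 20 members, but with 10 5hmC-bearing regions and 5hmC coverage of 15.7% and 12.0% in DKO, 11.2% and 12.9% in Tet2KO, and 15.8% and 17.6% in WT. The other bins among the 5 densest, chr5:114600001-114700000 and chr17:30800001-30900000, held 21 and 20 members. Dense members thus occurred both in a bin almost free of 5hmC and in one with more 5hmC than the span as a whole.

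Long stretches with no 5hmC peak of any library held few members per Mb. There were 302 such stretches of 1 Mb or more, 701 Mb in all, with 2949 members, or 4.21 per Mb against 22.8 per Mb in the rest of the span. The longest, chr15:12866474-25055660, measured 12.2 Mb and held 55 members among 194 5mC regions. The next, chr1:109489731-120208252, measured 10.7 Mb and held 20 members among 81. Of the 5mC regions in the longest stretches, from the longest down, members made up 28.4%, 24.7%, 24.7%, 19.5% and 21.4%. Over all merged 5mC regions the share was 19.4%. No 5hmC peak could keep a region out inside these stretches, while it could elsewhere, so these shares are not like for like. Shares in the remaining stretches are not given. All but 4 of the 302 held at least 1 member.

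Regions just inside and just outside the limits of the choice were as follows. Of the members, 1262 lay under 100 bp from a 5hmC peak, with a median width of 452 bp and a core of 227 bp. On the other side of that limit, 1034 5hmC-bearing constant regions were overlapped by under 100 bp, with a median width of 460 bp and a core of 229 bp. At the width limit, 144 members of 1100 bp or more had a median distance of 2544.5 bp to 5hmC, and 74 constant regions of 1200 to 1300 bp without 5hmC had 2228 bp. A further 16040 regions without 5hmC missed a peak in 1 of the 5 lists of 5mC. The missing library was DKO 1 in 1965 and DKO 2 in 5569, Tet2KO in 2597, and WT 1 in 3305 and WT 2 in 2604 of them.

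The genotypes contributed unequally to the absence of 5hmC. Among constant regions under 1200 bp, 74.6% and 74.4% had no 5hmC peak of the same library in DKO, 75.7% and 76.1% in Tet2KO, and 69.9% and 70.7% in WT. The 5hmC lists of DKO alone would have left 48321 regions, those of Tet2KO alone 48443 and those of WT alone 45176. Members were 86.7%, 86.5% and 92.8% of these. Of the constant regions kept out by a single library, 441 and 578 were so by the DKO libraries, 682 and 589 by the Tet2KO libraries, and 1335 and 1181 by the WT libraries. Regions with 5hmC in both libraries of 1 genotype and in no other library numbered 149 for DKO, 92 for Tet2KO and 760 for WT. These counts use the 5hmC lists that chose the members, and no count over all 5mC regions is given beside them. They are a description and not a result about members.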

How the data were processed

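The authors supplied 1 peak list for each of the 11 libraries analysed here. The other 17 samples of the series, RNA-seq libraries, were not analysed here. Each deposited list gives a chromosome, a start, an end and a score for each peak, without a header. The lowest deposited score was 50, and its scale is not given in the sources used here. It served as a rank inside each list, with a minimum of 100 as an alternative. Per the submitters' processing notes, Bowtie 0.12.9, MACS 1.4.2 and the build mm9 were among the tools and builds used, with no role given. Depth, input controls and duplicate removal are not stated in these sources.

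Peaks were merged and measured with Python 3.11.15 (numpy 2.4.6, pandas 2.3.3), and positions are counted from 1. limma 3.58.1 in R 4.3.3 (eBayes with trend) was fitted to all constant regions, with covered length as log2 and centred on each library's median, and p-values were adjusted by Benjamini-Hochberg. The code was tested on simulated data. No label ties the libraries of a genotype to different mice, so a p-value here speaks of the spread between libraries, which may be technical only. The 5mC list of Tet2KO has the number 2 in its title and 1 in its file name, and the title was followed. Correlations of the deviations of same-numbered libraries were -0.039 to 0.0311, so numbers were not taken to pair libraries.

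The members, rule and tests were chosen with earlier results of these data known. The planned sign-flip tests of members against other constant regions, on 5hmC in flanks, covered length and score percentile, are not given. The 5hmC lists chose the members and favour short regions. Regions named in the text were taken from the 5 with the highest lowest score percentile and the 5 farthest from 5hmC. Also named are the 3 widest and 3 narrowest, and the 2 with the lowest p for each limma comparison. Bins of 100 kb named are the 5 with the most members. No genome or annotation of mm9 was used here, so no sequence, CpG content or gene is given and the planned measures of these were not made.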

Additional observations from a re-analysis of the deposited data

How the results depend on the processing

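Of 204 recomputed values, 178 kept their direction and their side of any threshold or moved little, 21 moved more and 5 reversed. Restricted to scores of 100 or more, there were 25347 members, 71.5% of the constant regions under 1200 bp in that setting. Of the 41905 members, 20176 overlapped one of them. Leaving out 1 library in turn gave 42346 to 47788, where the choice had 1 list fewer to meet. Without the filter on flanks, limma called 486 regions in DKO against WT (417 members), 469 in Tet2KO against WT (387 members) and 321 in DKO against Tet2KO (279 members), against 0 with it; prior degrees of freedom were 0.862 without and 3.51 with it. For covered length, limma with the replicate number as a block called 4 regions in DKO against WT, none a member, and 4 in Tet2KO against WT, 1 a member. Leaving out 1 library gave 0 to 2 (0 to 1 members) in DKO against WT, with 1 member called without WT library 1. In Tet2KO against WT it gave 0 to 5 (0 to 1 members), regions under 1200 bp gave 1 and a score of at least 100 gave 0. The block changed no call on flanks. The gap in flank 5hmC between members and 5hmC-bearing regions was -21.2 points with 2 kb flanks and -15.7 to -15.1 with 1 library left out. The gap in covered length was -52 bp at a score of at least 100, -13.6 bp at 400 to under 600 bp and -44.8 to -42.8 bp with 1 library left out. With lists shortened to equal length by score, the distance difference reversed to 127 bp. The difference in peaks per flank reversed to 0.0224 at a score of at least 100, and was -0.0352 to 0.0261 with 1 library left out, with 0.0153, 0.0116 and 0.0261 without DKO 1, Tet2KO 1 and WT 2. The cause of these shifts was not tested. Median covered length in DKO against WT was -20.5 to 20.5 bp with 1 library left out. Comparisons of flank coverage of each knockout with WT, scaled coverage, peak number and peak width, and members by genotype, were added after seeing the data. A single minimum score treats all lists as 1 scale, which is not known. Depth is unknown, so a missing 5hmC peak is not detection of absence.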
